A study of Homo sapiens with 8 samples.

Results

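The genes described here encode the enzymes of cholesterol synthesis and of fatty acid synthesis, the SREBP system that controls both, and proteins that move cholesterol inside the cell. They were taken by symbol from a list of 34 genes, of which 31 were measured by at least 1 probe set carrying that gene's symbol alone, among 19775 genes in all. FDFT1, CYP51A1 and FADS1 were not analysed here: in the probe annotation used, each probe set of CYP51A1 and FADS1 also carries a second gene, and FDFT1 has no named probe set. The measured members comprise 17 sterol synthesis enzymes, 4 genes of SREBP control, 3 cholesterol transport genes and 7 fatty acid enzymes.

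Cholesterol is built from acetyl-CoA through mevalonate and isoprenoid units to squalene, which is closed to a ring and trimmed to cholesterol in the endoplasmic reticulum. When sterols run low, the protein SCAP carries the transcription factors SREBP-1 and SREBP-2 to the Golgi, where they are cut and released to switch on sterol, uptake and fatty acid genes, while INSIG proteins hold SCAP back when sterols are plentiful. Fatty acids are made from the same acetyl-CoA by ACLY, ACACA and FASN, then lengthened by ELOVL enzymes and desaturated by SCD and FADS enzymes. Tumour cell lines commonly run these pathways at a high rate to supply membranes.

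RNA of H460, an established human non-small-cell lung carcinoma line, was hybridised as biotin-labelled target to 8 arrays. Of these, 4 hold the TRAIL-sensitive control cells (H460S) and 4 hold cells with acquired TRAIL resistance (H460R), obtained by daily exposure to subtoxic TRAIL, an apoptosis-inducing ligand, over 6 months. Both groups are the same line grown in RPMI medium with serum, and the labels name no genetic change. The labels do not say whether the arrays of a group are separate cultures, whether the resistant cells are 1 clone, how long the control cells were kept in culture, or when TRAIL was last added, so the p-values reflect array-to-array spread that may be technical in origin. The TRAIL treatment text stands on the labels of all 8 arrays, and the groups were taken from the sample titles. Acquired resistance, long TRAIL exposure and time in culture cannot be told apart here.

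Array medians ranged from a signal of 32.6 to 37.4, and 4 arrays per group limit the precision. The 3' minus 5' difference of the ACTB control probe sets, a measure of RNA integrity and labelling, was 0.226 to 0.231 on the log2 scale on the sensitive and 0.102 to 0.133 on the resistant arrays (exact two-sided permutation test, p = 0.0286, the smallest possible with 70 assignments), and that of GAPDH did not separate the groups (p = 0.686). The part of the ACTB difference in the results was not tested. Of 5 epithelial markers, KRT8, KRT18 and KRT19 were bright (log2 levels of 11.28 or more in both groups), while EPCAM (4.40 and 3.83) and CDH1 (2.43 and 2.29) lay below the median probe set, at 5.01. KRT19 fell by 1.24 in resistant cells and the other 4 did not pass. Of 4 leukocyte and 4 endothelial markers none passed, and PTPRC, CD3E, VWF, CDH5 and TEK were below that level in both groups, CD14 (6.47 and 6.67) and PECAM1 (6.14 and 5.73) above it in both, and ITGAM (4.05 and 5.03) above it in resistant cells. Of 5 fibroblast markers, LUM fell by 3.27 from 5.75 to 2.48 and the others did not pass, with COL3A1 (9.96 and 9.95) and COL1A1 (7.66 and 7.30) above that level in both groups. Levels and changes below are log2(signal + 1) values, changes are resistant minus sensitive with limma's standard error and n = 4 per group, and "rose" or "fell" is used for a Benjamini-Hochberg adjusted p below 0.05 from limma over all 19775 genes.

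The DNA just upstream of 7 of these genes is printed as examples of the sequence before genes that rose and genes that fell. The 7 were picked and do not stand for all members, for which shares are given below. Each line gives the 250 bases before the outermost RefSeq start (GRCh38.p14), 5' to 3' on the gene's strand, with matches in capitals to CCAAT on either strand (read as ATTGG on the other), the box bound by NF-Y, to CACGTG, an E-box, and to the SREBP-type sites TCACNCCAC, TCACNCNAC and CACCCCAC. The HMGCS1 stretch lies at chr5:43313413-43313662, minus strand, NSDHL at chrX:152830813-152831062, plus strand and INSIG1 at chr7:155297628-155297877, plus strand, and these 3 genes were higher in resistant cells.
HMGCS1: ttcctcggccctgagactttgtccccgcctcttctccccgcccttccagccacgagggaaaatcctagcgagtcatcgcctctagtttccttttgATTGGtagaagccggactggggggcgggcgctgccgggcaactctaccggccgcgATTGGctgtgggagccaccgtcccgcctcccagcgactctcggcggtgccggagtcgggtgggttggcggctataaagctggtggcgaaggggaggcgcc
NSDHL: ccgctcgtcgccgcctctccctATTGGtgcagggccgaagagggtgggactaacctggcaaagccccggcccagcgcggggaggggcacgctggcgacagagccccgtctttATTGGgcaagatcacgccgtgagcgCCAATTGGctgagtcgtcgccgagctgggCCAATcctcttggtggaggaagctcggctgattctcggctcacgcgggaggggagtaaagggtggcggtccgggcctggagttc
INSIG1: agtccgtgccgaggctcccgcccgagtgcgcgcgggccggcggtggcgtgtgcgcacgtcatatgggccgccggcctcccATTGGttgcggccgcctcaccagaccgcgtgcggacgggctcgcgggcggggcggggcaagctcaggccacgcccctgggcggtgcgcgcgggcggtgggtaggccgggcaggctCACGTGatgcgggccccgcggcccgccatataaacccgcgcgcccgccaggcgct
The FDPS stretch lies at chr1:155308616-155308865, plus strand, STARD4 at chr5:111512536-111512785, minus strand and FADS2 at chr11:61815953-61816202, plus strand, and these 3 were lower.
FDPS: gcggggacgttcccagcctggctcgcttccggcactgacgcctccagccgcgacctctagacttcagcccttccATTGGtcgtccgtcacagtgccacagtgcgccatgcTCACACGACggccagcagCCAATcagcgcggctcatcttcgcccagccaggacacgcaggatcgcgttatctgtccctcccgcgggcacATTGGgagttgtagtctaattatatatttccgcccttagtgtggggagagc
STARD4: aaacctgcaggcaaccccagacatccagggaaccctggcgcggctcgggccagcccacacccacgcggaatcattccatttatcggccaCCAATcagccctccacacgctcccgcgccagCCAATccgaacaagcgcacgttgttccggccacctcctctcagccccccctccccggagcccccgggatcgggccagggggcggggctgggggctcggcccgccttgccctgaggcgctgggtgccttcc
FADS2: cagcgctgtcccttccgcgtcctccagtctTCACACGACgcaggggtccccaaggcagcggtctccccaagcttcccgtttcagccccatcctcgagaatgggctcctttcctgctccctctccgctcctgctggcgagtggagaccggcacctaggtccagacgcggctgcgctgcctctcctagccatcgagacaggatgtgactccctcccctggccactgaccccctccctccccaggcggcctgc
SREBF2, with its stretch at chr22:41832855-41833104, plus strand, did not pass the test and is shown because its window alone among the members holds TCACNCCAC.
SREBF2: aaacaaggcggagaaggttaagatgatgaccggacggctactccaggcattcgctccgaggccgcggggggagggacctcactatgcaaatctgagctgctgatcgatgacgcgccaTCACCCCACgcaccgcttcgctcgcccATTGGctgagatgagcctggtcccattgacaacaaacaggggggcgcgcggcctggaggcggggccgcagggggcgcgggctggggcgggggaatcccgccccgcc

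HMGCS1, NSDHL, FDPS and STARD4 each hold at least 2 CCAAT boxes in these bases, and the FADS2 stretch holds none, so the box stands upstream of genes that rose and of genes that fell. FDPS and FADS2 hold the same 9 letters of a TCACNCNAC match, 140 and 220 bases upstream of their starts, and the CACGTG of INSIG1 begins 55 bases upstream. RefSeq windows of 300 bases, 250 before and 50 after the outermost start, were found for 28 of the 31 measured members. CCAAT occurred in 18 of the 28 (64.3%), against 35.7% of the windows of 27305 genes, and at least 2 matches in 13 (46.4%), against 11.3%. Split by the array result, CCAAT was present in 5 of 8 genes that rose, in 4 of 8 that fell and in 9 of 12 that did not pass. GGGCGG, the Sp1 box, was searched on both strands too, is not capitalised, and occurred in 23 of 28 windows (82.1%), against 44.5% of all. TCACNCNAC, which takes in TCACNCCAC, matched in 4 windows (14.3%, against 2.55%). It was present in 0 of 8 genes that rose, in 2 of 8 that fell (FDPS and FADS2) and in 2 of 12 that did not pass (HSD17B7 and SREBF2). These counts are small and were not compared by a test. CACGTG matched in 5 windows (17.9%, against 7.41%). TCACNCCAC (1.13% of all windows) and CACCCCAC (2.73%) matched only in SREBF2, where they overlap. The 27305 genes were not matched to the members by gene type or level, so the differences in share are not read as a trait of lipid genes. A match is a run of letters and not a measured binding site, and a start used in H460 may differ from the outermost one.

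The lipid synthesis genes did not move as a block. Of the 31 measured members, 9 rose and 9 fell in resistant cells and 13 did not pass, with a median change of -0.02, against -0.03 over all genes tested. Over all genes 30.3% passed, 14.7% higher and 15.6% lower. In cultures measured as a whole, a lower signal from fewer expressing cells and from less RNA per cell cannot be told apart. Most members are bright, and bright genes passed more often: of 29 members with a mean log2 level above 7.5, 18 passed, against 53.9% of the 7483 genes above that level (28.1% higher and 25.8% lower), so the count of members that passed is close to what bright genes in general give and is read no further. The 4 resistant arrays lay wholly above the 4 sensitive ones for 9 members and wholly below for 9, against 33.9% of all genes without overlap. That share was not taken for bright genes alone, so these counts are read no further either. A change of at least 2-fold that passed was seen in HMGCS1, IDI1 and NSDHL, all higher, and in FADS2, lower, where 7.75% of all genes had one. After median centring of the arrays 9 members rose and 6 fell, and on probe sets without a suffix for possible cross-hybridisation, which measure 22 members and leave out ACAT2, PMVK, DHCR7 and SCD among those that fell, 8 rose and 3 fell.

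**Figure D1:**
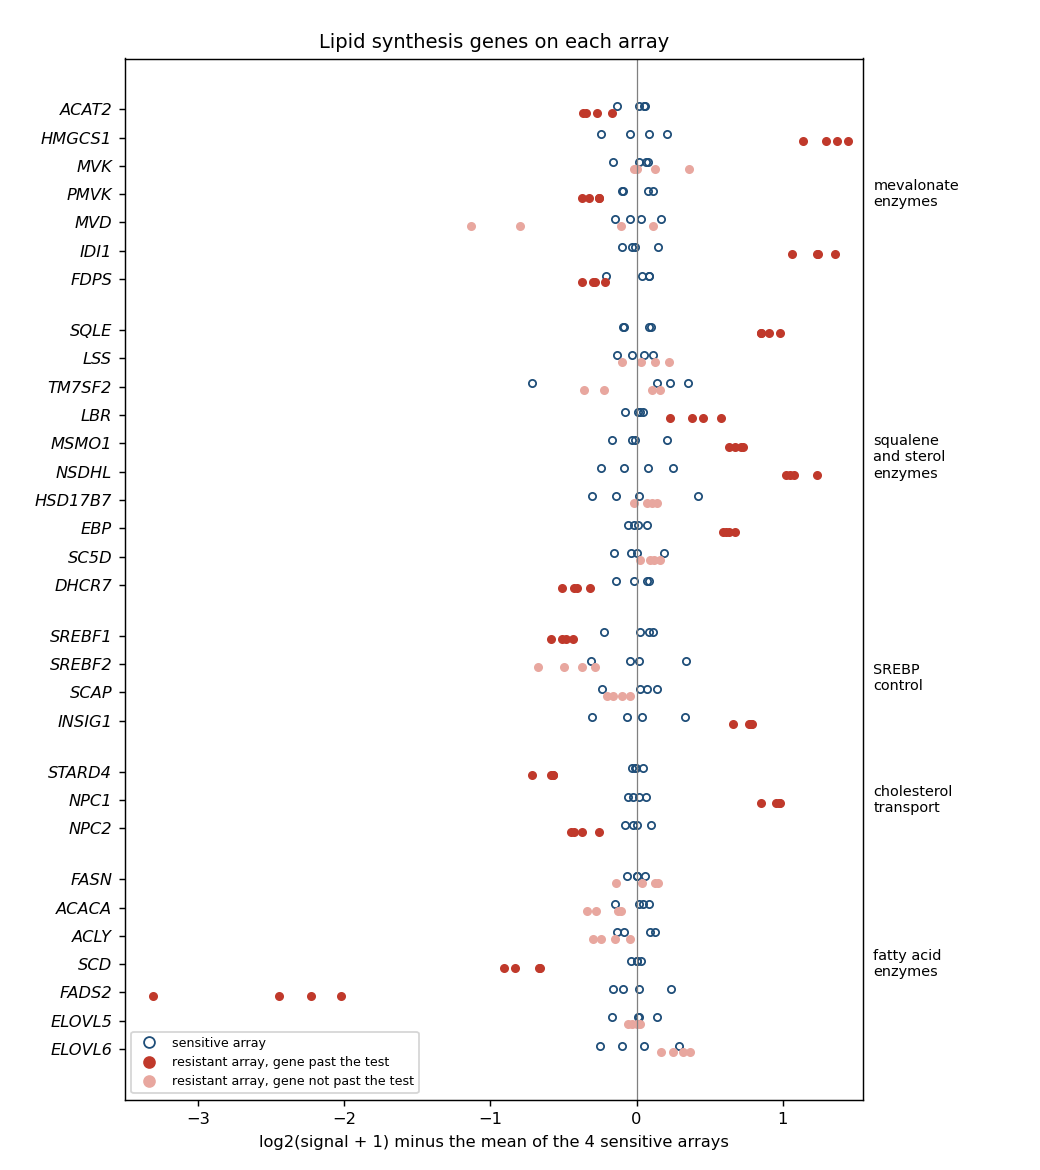
Log2(signal + 1) of each member on each array minus the mean of the 4 sensitive arrays, by pathway list; open points are sensitive and filled points resistant arrays, dark where the gene passed the test. HMGCS1, IDI1 and NSDHL lie farthest to the right and FADS2 farthest to the left, with 9 genes separated upward and 9 downward.

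In the mevalonate branch, 2 of 7 enzymes rose and 3 fell, with a median change of -0.29. HMGCS1, which makes HMG-CoA from acetoacetyl-CoA at the entry to the pathway, had levels of 7.65, 7.39, 7.19 and 7.52 on the sensitive and 8.88, 8.73, 8.81 and 8.58 on the resistant arrays. All resistant arrays were above all sensitive ones by a wide margin, and HMGCS1 rose by 1.31 ± 0.12 (2.48-fold, adjusted p = 0.000241). A second probe set of HMGCS1 changed by 1.24 ± 0.11.

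IDI1, the isomerase that makes the reactive isoprenoid unit dimethylallyl diphosphate, had levels of 9.98, 10.05, 10.07 and 10.23 on the sensitive and 11.32, 11.33, 11.15 and 11.44 on the resistant arrays. The groups lay far apart, and IDI1 rose by 1.22 ± 0.09 (adjusted p = 0.000102). Both bright probe sets of IDI1 carry a suffix for possible cross-hybridisation. The probe set without one, which is much dimmer (a mean log2 level of 5.87), changed by 0.11 (adjusted p = 0.761 on probe sets without suffix). With the mean of its 4 probe sets IDI1 rose by 0.47 (adjusted p = 0.0153).

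ACAT2, the cytosolic thiolase that supplies acetoacetyl-CoA, PMVK, which phosphorylates phosphomevalonate, and FDPS, which makes farnesyl diphosphate, were lower in resistant cells by small amounts. FDPS had levels of 11.08, 11.37, 11.33 and 11.37 on the sensitive and 11.00, 10.99, 10.91 and 11.07 on the resistant arrays. Its groups did not overlap, but resistant array 4, at 11.07, came just below sensitive array 1, and FDPS fell by 0.29 ± 0.09 (adjusted p = 0.0448). ACAT2 fell by 0.29 ± 0.08 (adjusted p = 0.0324) and PMVK by 0.30 ± 0.08 (adjusted p = 0.026). None of these 3 falls passed after median centring, with changes of -0.21, -0.23 and -0.22 for ACAT2, PMVK and FDPS. In addition, FDPS did not pass when all genes were taken as the mean of their probe sets (adjusted p = 0.0620). FDPS passed without sensitive array 1 but not without any of the other 7 arrays (adjusted p-values up to 0.115), ACAT2 not without sensitive array 1, 2 or 4 or resistant array 1, 2 or 3 (up to 0.0887), and PMVK not without sensitive array 1 or 3 or resistant array 1, 2 or 3 (up to 0.0714). MVK, mevalonate kinase, changed by 0.12 ± 0.11 (95% interval -0.14 to 0.38) and MVD, which decarboxylates mevalonate diphosphate, by -0.48 ± 0.28 (95% interval -1.13 to 0.17), and neither passed. Leaving out any 1 sensitive array left 1 mevalonate enzyme that fell, and leaving out resistant array 1, 2 or 3 left 0.

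From squalene to cholesterol, 5 of 10 enzymes rose and 1 fell, with a median change of 0.25. NSDHL, which acts in the removal of the methyl groups at the C4 position of sterols, had levels of 8.22, 7.88, 7.72 and 8.05 on the sensitive and 9.01, 9.04, 8.99 and 9.20 on the resistant arrays. The lowest resistant array, 8.99, lay above the highest sensitive one, 8.22, and NSDHL rose by 1.09 ± 0.12 (2.14-fold, adjusted p = 0.000517). Its second probe set changed by 1.53 ± 0.12.

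MSMO1, the methylsterol oxidase that starts the same demethylation, had levels of 9.18, 9.31, 9.55 and 9.33 on the sensitive and 9.97, 10.06, 10.07 and 10.02 on the resistant arrays. The groups were separate, and MSMO1 rose by 0.69 ± 0.09 (adjusted p = 0.0013). SQLE, squalene epoxidase, which adds the oxygen needed for ring closure, had levels of 9.29, 9.10, 9.27 and 9.10 on the sensitive and 10.17, 10.04, 10.10 and 10.04 on the resistant arrays. Each resistant array was above each sensitive one, and SQLE rose by 0.90 ± 0.08 (adjusted p = 0.000195). All 4 probe sets of SQLE changed upward and passed, by 0.63 to 1.16.

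EBP, the isomerase that moves the ring double bond, had levels of 10.54, 10.46, 10.48 and 10.41 on the sensitive and 11.07, 11.09, 11.11 and 11.15 on the resistant arrays. The spread within each group was small beside the gap between them, and EBP rose by 0.63 ± 0.06 (adjusted p = 0.000365). LBR, a sterol reductase that is also the lamin B receptor of the nuclear envelope, had levels of 10.50, 10.53, 10.40 and 10.49 on the sensitive and 10.86, 10.94, 11.06 and 10.71 on the resistant arrays. The groups did not overlap, and LBR rose by 0.41 ± 0.09 (adjusted p = 0.0125).

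DHCR7, the reductase of the last step, was the 1 enzyme of this branch that fell. Its levels were 9.68, 9.45, 9.58 and 9.67 on the sensitive and 9.28, 9.09, 9.17 and 9.19 on the resistant arrays. All resistant arrays lay below all sensitive ones, and DHCR7 fell by 0.42 ± 0.08 (adjusted p = 0.00763), with -0.59 ± 0.12 in its second probe set. LSS, which closes the ring, changed by 0.07 ± 0.10 (95% interval -0.16 to 0.30), HSD17B7, the ketoreductase partner of NSDHL, by 0.08 ± 0.16 (95% interval -0.29 to 0.44), SC5D, a sterol desaturase, by 0.10 ± 0.09 (95% interval -0.11 to 0.31), and TM7SF2, a reductase that acts at the same step as LBR and is dim here, by -0.08 ± 0.26 (95% interval -0.68 to 0.52). None of these 4 passed. The probe set of HSD17B7 carries a suffix for possible cross-hybridisation. Over the whole route, 7 of 17 sterol enzymes rose and 4 fell. With median centring 7 rose and 1, DHCR7, fell. Without centring, leaving out any 1 sensitive array left 2 that fell, leaving out resistant array 1, 2 or 3 left 1, and leaving out resistant array 4 left 3.

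**Figure D2:**
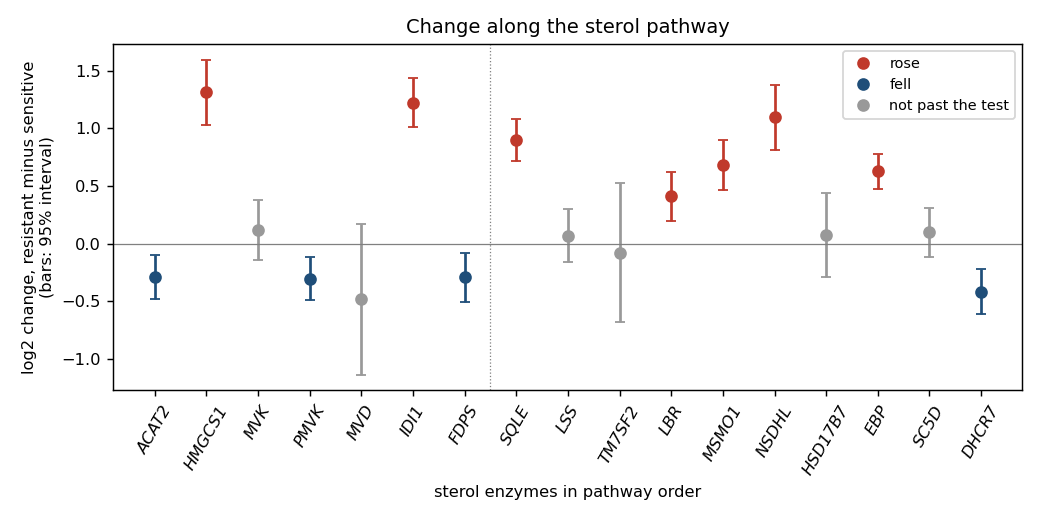
Log2 change, resistant minus sensitive, of the 17 measured sterol enzymes in pathway order, with 95% intervals from limma (n = 4 arrays per group); the dotted line divides the mevalonate branch from the steps after it. HMGCS1 and IDI1 stand above 1 between neighbours near or below 0, while NSDHL, SQLE, MSMO1, EBP and LBR are above 0 in the later part and DHCR7 is below 0.

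Among the genes of SREBP control, INSIG1 rose and SREBF1 fell. INSIG1, which retains SCAP in the endoplasmic reticulum and is itself switched on by SREBPs, had levels of 8.94, 9.34, 8.70 and 9.04 on the sensitive and 9.77, 9.80, 9.66 and 9.79 on the resistant arrays. The resistant arrays lay close together above all sensitive ones, which spread from 8.70 to 9.34, and INSIG1 rose by 0.75 ± 0.14 (adjusted p = 0.00516). Its other 2 probe sets changed by 0.70 ± 0.21 and 0.04 ± 0.16 and did not pass among all probe sets (adjusted p = 0.0546 and 0.900), and with the mean of the 3 INSIG1 rose by 0.50 (adjusted p = 0.00682).

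SREBF1, the gene of SREBP-1, the family member tied most to fatty acid synthesis, had levels of 9.53, 9.20, 9.50 and 9.44 on the sensitive and 8.94, 8.84, 8.91 and 8.98 on the resistant arrays. The groups did not overlap, and SREBF1 fell by 0.50 ± 0.09 (adjusted p = 0.00571). With the mean of its probe sets the change was -0.35 (adjusted p = 0.134). SREBF2, the gene of SREBP-2, the member tied most to sterol synthesis, had levels of 8.33, 7.68, 8.01 and 7.95 on the sensitive and 7.712, 7.319, 7.619 and 7.502 on the resistant arrays. Its groups overlapped by 1 resistant array, and it changed by -0.46 ± 0.15 (adjusted p = 0.0636). A second, nearly as bright probe set of SREBF2 fell by 0.45 ± 0.11 (adjusted p = 0.0267 among all probe sets). SREBF2 passed without sensitive array 2 (-0.56, adjusted p = 0.0315), with a trend and robust prior (adjusted p = 0.0152), with a pseudocount of 16 (adjusted p = 0.0465) and after removal of dim probe sets (adjusted p = 0.0228). SCAP changed by -0.13 ± 0.10 (95% interval -0.36 to 0.11) and did not pass.

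The 3 cholesterol transport genes all passed, in different directions. NPC1 and NPC2 act together to release cholesterol from lysosomes, NPC2 as the soluble carrier and NPC1 as the membrane protein that receives it. NPC1 had levels of 9.99, 9.91, 9.87 and 9.95 on the sensitive and 10.91, 10.88, 10.78 and 10.91 on the resistant arrays. The groups were separated by several times their spread, and NPC1 rose by 0.94 ± 0.07 (adjusted p = 8.25e-05), or by 1.65 with the mean of its 4 probe sets. The other 3 are much dimmer, with mean log2 levels of 5.51, 5.04 and 2.92. NPC2 had levels of 10.68, 10.50, 10.56 and 10.59 on the sensitive and 10.15, 10.14, 10.21 and 10.32 on the resistant arrays. All resistant arrays were lower, and NPC2 fell by 0.38 ± 0.08 (adjusted p = 0.00852).

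STARD4, a soluble carrier that moves cholesterol between membranes and a known SREBP-2 target, had levels of 11.73, 11.68, 11.67 and 11.65 on the sensitive and 11.10, 11.11, 11.11 and 10.97 on the resistant arrays. The groups lay far apart, and STARD4 fell by 0.61 ± 0.07 (adjusted p = 0.000492).

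Fatty acid enzymes gave 0 rises and 2 falls among 7, with a median change of -0.18. With an unadjusted limma p below 0.05 there were 0 higher and 3 lower, and with a trend and robust prior 1, ELOVL6, rose and 3, with ACACA, fell. FADS2, the delta-6 desaturase that opens the route from dietary fatty acids to long polyunsaturated ones, had levels of 8.88, 8.81, 9.21 and 8.99 on the sensitive and 6.53, 5.67, 6.75 and 6.95 on the resistant arrays. Every resistant array lay far below every sensitive one and the resistant arrays spread more, and FADS2 fell by 2.50 ± 0.28 (5.66-fold, adjusted p = 0.000519). This was the largest change among the members, and FADS2 ranked 165 of 19775 genes by absolute change. In its other probe set, which is dim (a mean log2 level of 3.03), the change was -1.77 and did not pass on probe sets without suffix (adjusted p = 0.0888).

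SCD, the desaturase that makes oleic and palmitoleic acid, had levels of 12.46, 12.50, 12.53 and 12.50 on the sensitive and 11.83, 11.66, 11.84 and 11.60 on the resistant arrays. The resistant arrays were all lower, and SCD fell by 0.77 ± 0.08 (adjusted p = 0.000426). All 4 probe sets of SCD fell, by 0.77 to 1.05.

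The enzymes that build palmitate did not pass. FASN, fatty acid synthase, had levels of 10.07, 10.01, 10.13 and 10.08 on the sensitive and 10.22, 9.93, 10.20 and 10.11 on the resistant arrays. The groups overlapped, with a change of 0.04 ± 0.09 (95% interval -0.16 to 0.24). ACACA, the carboxylase that makes malonyl-CoA, changed by -0.21 ± 0.09 (adjusted p = 0.125), and its second probe set fell by 0.92 ± 0.12. With the mean of both ACACA fell by 0.57 (adjusted p = 0.00218), and with a trend and robust prior it fell by 0.21 (adjusted p = 0.0446).

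ACLY, which cuts citrate to cytosolic acetyl-CoA, had probe sets that differed in sign. The brightest changed by -0.18 ± 0.10 (adjusted p = 0.209), while the other 2 rose by 0.44 ± 0.09 and 0.39 ± 0.08 among all probe sets. The elongase ELOVL5 changed by -0.02 ± 0.08 (95% interval -0.21 to 0.18), and 1 of its 3 other, dimmer probe sets rose by 0.92 ± 0.22. ELOVL6, which lengthens palmitate, changed by 0.28 ± 0.13 (95% interval -0.02 to 0.57), and the dimmest of its 3 probe sets rose by 0.73 ± 0.11. ELOVL6 passed with the mean of its probe sets (0.45, adjusted p = 0.0138) and without sensitive array 3 (0.37, adjusted p = 0.0433).

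Several probe sets of 1 gene could be compared within the same arrays. The members have 70 probe sets with 1 symbol, and 20 members have more than 1. Among the 18 members that passed, 10 have a further probe set brighter than the median one, giving 18 such probe sets. Of these, 13 passed in the gene's direction among all 54613 probe sets, 0 passed in the opposite direction and 5 did not pass. Of all probe sets 19.5% passed, 9.13% higher and 10.4% lower. The 1 of the 18 that differed in sign was a dimmer probe set of IDI1 with a cross-hybridisation suffix (-0.58 ± 0.19, adjusted p = 0.0795). The 18 belong to genes that had passed on the same arrays and were limited to brighter probe sets. The share over all probe sets is therefore not a matched one, and the agreement is not independent support. Adjusted over all probe sets, ACAT2, PMVK and FDPS did not pass (adjusted p = 0.0809, 0.0674 and 0.0963).

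**Figure D3:**
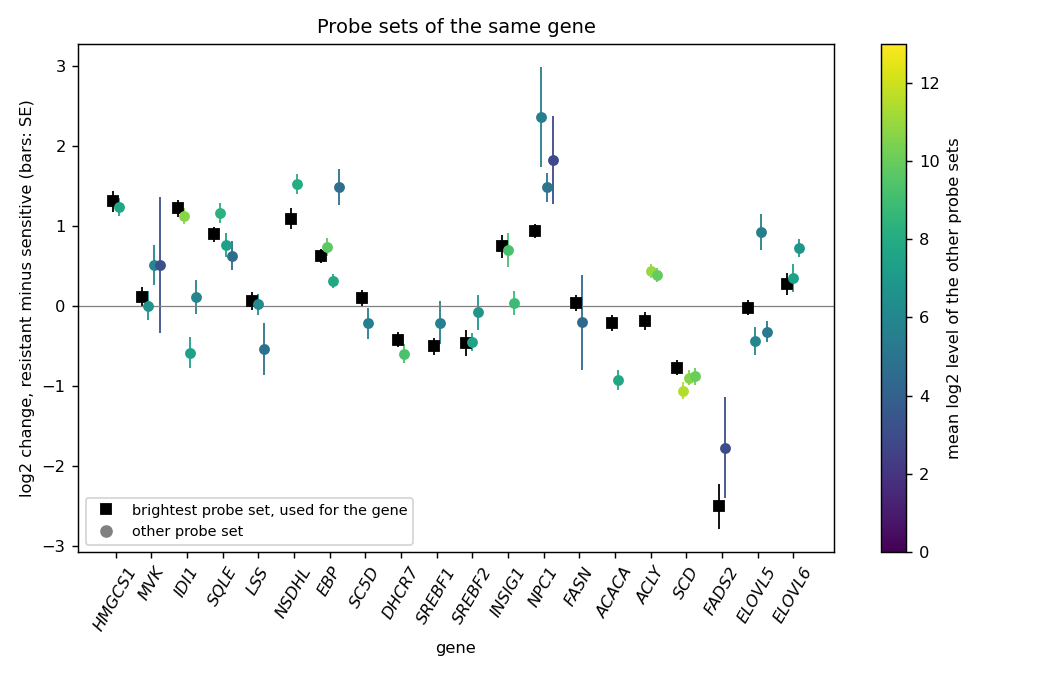
Log2 change with limma's standard error (n = 4 arrays per group) of every probe set of the 20 members that have more than 1; black squares mark the brightest probe set and circles the others, coloured by their mean log2 level. The probe sets of HMGCS1, SQLE, EBP and SCD, among others, fall on 1 side of 0, whereas those of IDI1, LSS, SC5D, FASN, ACLY and ELOVL5 lie on both.

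Other genes of the same pathways, listed by role in the same way, were mixed as well. Of 11 further genes of SREBP processing and turnover, 2 rose and 4 fell, or 2 fell after median centring and without sensitive array 1, 3 or 4 or resistant array 1, 3 or 4. INSIG2, the second SCAP-retaining protein, had levels of 10.93, 10.85, 10.90 and 10.94 on the sensitive and 9.01, 8.90, 8.98 and 8.97 on the resistant arrays. The groups lay far apart in the direction opposite to INSIG1, and INSIG2 fell by 1.94 ± 0.06 (adjusted p = 4.01e-06). MBTPS2, the protease that makes the second cut of SREBPs, fell by 0.44 ± 0.06, but not with the mean of its probe sets (-0.33, adjusted p = 0.127). TMEM97, a sterol-regulated membrane protein that binds NPC1, rose by 0.63 ± 0.06, and the chaperone HSP90B1 rose by 0.37 ± 0.07, but not with the mean of its probe sets (0.22, adjusted p = 0.124).

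Of 15 other isoprenoid and sterol genes, 4 rose and 2 fell, or 1 fell after median centring and without any 1 array other than resistant array 3. FNTB, the beta subunit of protein farnesyltransferase, fell by 1.36 ± 0.16. PDSS1, which makes the isoprenoid tail of coenzyme Q, rose by 1.04 ± 0.10, but changed by -0.23 (adjusted p = 0.801) on its probe set without suffix and by 0.41 (adjusted p = 0.346) with the mean of its probe sets. CYB5R3, a reductase that feeds electrons to desaturases and sterol oxidases, rose by 0.52 ± 0.08, and CYB5B, a cytochrome b5, by 0.72 ± 0.16, the latter not on its probe set without suffix (0.09, adjusted p = 0.729). Of 10 genes of LXR signalling and of cholesterol export or storage, 0 rose and 3 fell, with 1 rise without resistant array 4, and an unadjusted limma p below 0.05 gave 0 higher and 5 lower. SCARB1, the HDL receptor, fell by 0.51 ± 0.08, but not with the mean of its probe sets (-0.39, adjusted p = 0.185). NR1H3, the gene of LXR alpha, fell by 0.41 ± 0.11 and LIPA, the lysosomal acid lipase, by 0.26 ± 0.07. Neither passed without sensitive array 2, 3 or 4 or resistant array 1, 2 or 3 (adjusted p-values up to 0.0758 and 0.0691) or after median centring (-0.34 and -0.18). NR1H3 also did not pass after quantile normalization (adjusted p = 0.0503), nor LIPA with the mean of its probe sets (-0.41, adjusted p = 0.568).

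Of 18 other genes of fatty acid synthesis and elongation, 2 rose and 3 fell, or 4 and 5 with dim probe sets left out before the fit. ELOVL4, an elongase of very long chains, fell by 1.29 ± 0.12, FADS3, another member of the FADS family, by 0.82 ± 0.12 and ME1, malic enzyme, a source of NADPH, by 0.65 ± 0.06, while HACD2, a dehydratase of the elongation cycle, rose by 0.65 ± 0.11. Of 16 genes of fatty acid activation and oxidation, 3 rose and 5 fell. ACSL4, which prefers arachidonic acid, rose by 1.40 ± 0.22. HADHA, a subunit of the mitochondrial trifunctional protein, fell by 0.60 ± 0.07, ACSL1 by 0.55 ± 0.07 and ETFDH, which passes electrons to ubiquinone, by 0.54 ± 0.08. ACSL1 did not pass on its probe set without suffix (-0.49, adjusted p = 0.0813).

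Of 13 genes of glycerolipid assembly and lipid droplets, 3 rose and 3 fell, or 5 rose after median centring, and HILPDA and MGLL changed the most of the genes in these 6 further lists. HILPDA, a hypoxia-inducible droplet protein that inhibits lipolysis, had levels of 12.76, 12.54, 12.66 and 12.82 on the sensitive and 9.98, 9.85, 9.96 and 10.04 on the resistant arrays. No array came near the other group, and HILPDA fell by 2.74 ± 0.09 (adjusted p = 3.74e-06). PLIN2, a droplet coat protein, fell by 1.69 ± 0.10, or by 0.54 with the mean of its probe sets, which did not pass (adjusted p = 0.294). PLIN3, of the same family, went the other way and rose by 1.14 ± 0.10 (adjusted p = 0.000239). LPIN2, a phosphatidate phosphatase, fell by 1.37 ± 0.17. MGLL, which hydrolyses monoacylglycerols, had levels of 6.29, 6.29, 6.14 and 6.10 on the sensitive and 8.71, 8.52, 8.55 and 8.81 on the resistant arrays. It was higher on every resistant array, and MGLL rose by 2.44 ± 0.10 (adjusted p = 8.2e-06).

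**Figure D4:**
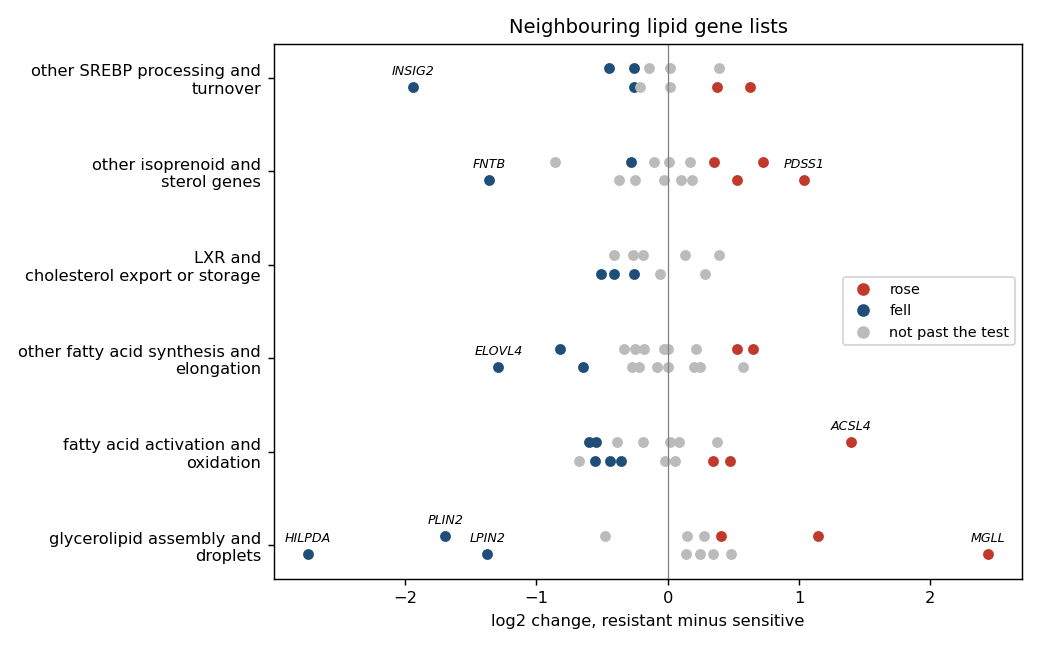
Log2 change, resistant minus sensitive, of every measured gene of 6 further lipid gene lists; red points rose, blue points fell and grey points did not pass. Each list has points on both sides of 0, and INSIG2, HILPDA and MGLL lie farthest out.

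Read across the lists, the shares that rose and fell stood beside 14.7% and 15.6% of all genes and 28.1% and 25.8% of the genes with a mean log2 level above 7.5. Sterol synthesis enzymes gave 41.2% higher and 23.5% lower. Of these, the mevalonate branch gave 28.6% higher and 42.9% lower, and the branch after it 5 higher and 1 lower of 10. Fatty acid enzymes gave 0% higher and 28.6% lower, the LXR and export list 0% and 30.0%, and cholesterol transport 33.3% and 66.7%. In SREBP control 1 of 4 genes rose and 1 fell. The remaining lists gave 11.1% to 26.7% higher and 13.3% to 36.4% lower. After median centring DHCR7 alone of the sterol enzymes fell, and NR1H3 and LIPA of the LXR list did not pass. The lists are small and differ in brightness, and no difference between lists was tested.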

How the data were processed

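The deposited table holds linear intensity values of 54675 probe sets on 8 arrays, 4 per group. Per the submitters' processing notes the tool was RMA, with no version given. The deposited intensities share a mean of 200.0 after trimming 2% at each end and reach below 1, the form of MAS-type signals, so the step that made them is not settled, and scaling to a common mean hides changes in total RNA. Values were taken as log2(signal + 1), which understates changes of dim genes, without further normalization. Probe sets with 1 symbol in the platform annotation (41097) took current symbols through gene identifiers from RefSeq of GRCh38.p14, where these matched (41037). For a gene with several probe sets, the brightest on average over the 8 arrays was used. The tests were run with limma 3.58.1 under R 4.3.3, with Benjamini-Hochberg adjustment over 19775 genes, and all 54613 probe sets in the same way. The fit was run on simulated data with independent noise on each array, which cannot address technical replicates or shared scaling. All members and up to 4 genes of each further list, by size of change among those that passed, were named, with all cell type markers and those further probe sets of members that differed in call. PLIN3 was named in addition, because it changed opposite to PLIN2. Members and lists were chosen with earlier results of these data known. Alternatives were another pseudocount, quantile or median scaling, other priors, array weights, other probe set rules, a filter on dim probe sets, a replicate block and leaving out each array. Promoter sequences are those of RefSeq.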

Additional observations from a re-analysis of the deposited data

Results flagged for a closer look

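Dixon's test at the 95% level was run on 108 groups of 4 arrays, over 54 named genes without the cell type markers and PLIN3. In 3 groups 1 array lay apart from the other 3, where chance gives about 1 in 20 groups. FDPS was at 11.08 on sensitive array 1 and at 11.33 to 11.37 on the other 3. STARD4 was at 10.97 on resistant array 4 and at 11.10 to 11.11 on the other 3. ME1 was at 11.00 on resistant array 1 and at 11.10 to 11.11 on the other 3.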

How the results depend on the processing

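Of the 18 members that passed, 10 kept direction and call under all alternatives in which they were measured, and of the 13 that did not pass, 10 never did. Members higher ranged from 8 to 10 and members lower from 3, on probe sets without suffix, to 11. Sterol enzymes lower numbered 1 after median centring and with the replicate block, 0 on probe sets without suffix, where FDPS is the 1 of the 4 measured, and 1 to 3 when leaving out each array, against 4. Fatty acid enzymes higher numbered 1 with a trend and robust prior and with the mean of all probe sets, and 0 to 1 when leaving out each array, against 0, and lower numbered 3, with ACACA, under the first 2 settings and 0 on probe sets without suffix, against 2. On these SCD is not measured and FADS2 only by its dim probe set. Deviations of same-numbered arrays had correlations of -0.0253 to 0.0149 over probe sets. Arrays 2 and 3 correlated best with their own number and arrays 1 and 4 with another. These values do not settle whether the numbers pair the arrays. With the replicate block, ACAT2, PMVK, FDPS, LBR (adjusted p = 0.0663), NPC2 (0.0503), NR1H3 (0.105) and LIPA (0.103) did not pass and SREBF2 did (0.0337), and 2088 genes were higher and 2268 lower, against 2900 and 3086. Sign changed, without passing, for LSS (-0.15), SC5D (-0.057), FASN (-0.077), ACLY (0.22) and ELOVL5 (0.038) with the mean of all probe sets, for SC5D (-0.21) and PDSS1 (-0.23) on probe sets without suffix, for TM7SF2 with array weights (0.021), and for ELOVL5 after median centring (0.056). When leaving out each array, TM7SF2 ranged from -0.32 to 0.038, HSD17B7 from -0.026 to 0.22 and ELOVL5 from -0.072 to 0.029. After median centring 56.8% of the genes that passed were higher, against 48.4%. The cause of these shifts was not tested. The number of arrays limits precision, and MVD and TM7SF2 lie near or below the level of the median probe set.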
